A study of Arabidopsis thaliana with 12 samples.

Results

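The comparison described here set *Arabidopsis thaliana* seedlings of *nup85-1*, a line that carries a T-DNA insertion in *NUP85*, against Col-0, its wild-type background, in the absence of added abscisic acid (ABA). It used the 6 libraries labelled mock, 3 per genotype, of the 12 in the series. All 33323 nuclear genes among the 33602 genes of the count table belonged to it, and 19488 of them had enough counts to be tested with all 3 replicates (19271 with replicates 1 and 2). Whole seedlings of both genotypes were grown for 7 days on Murashige and Skoog agar and were then kept in the liquid form of this medium for 3 h before RNA extraction. The other 6 libraries came from seedlings that received 50 µM ABA for 3 h. They did not enter the comparison and serve only as a look-up. The mutant was represented by 1 insertion allele, so the insertion and anything else carried by the line cannot be told apart. The labels do not say whether the replicates were separate cultures, and the p-values may therefore measure technical spread only.

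*NUP85* encodes a structural nucleoporin of the NUP107-160 subcomplex, the Y-shaped scaffold unit of the nuclear pore complex. Nuclear pores carry mRNA out of the nucleus and carry transcription factors and RNA-binding proteins into it. In *Arabidopsis*, members of this subcomplex have been linked to auxin and cold signaling, flowering time and defense. The question asked here was which genes differed between the genotypes before any hormone was given, and what these genes do. Because RNA was taken from whole seedlings, fewer cells of a type and less RNA per cell cannot be told apart.

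Between 6616931 and 14479752 reads per mock library were counted on genes, of which 0.255% to 3.75% lay on plastid and mitochondrial genes. Levels are given as library-size scaled counts (CPM), scaled by the trimmed mean of M-values (TMM) over all 12 libraries, always in the order replicate 1, 2, 3. Replicate 3 stood apart from replicates 1 and 2 in both genotypes. *LHY*, a dawn-phased clock gene, was at 6.66, 5.24 and 345 CPM in Col-0 and at 9.32, 9.76 and 313 CPM in *nup85-1*. *GRP7*, an RNA-binding protein gene that peaks in the evening, was at 3037, 2239 and 68.8 CPM in Col-0 and at 1844, 1623 and 39.3 CPM in *nup85-1*. The iron transporter gene *IRT1*, a root marker, stood at 282 and 286 CPM in replicate 3 of Col-0 and *nup85-1*, against 18.9 to 41.0 CPM in the other 4 libraries. Seed storage transcripts also separated replicate 3, with *CRA1* at 8.63 CPM in Col-0 and 45.7 CPM in *nup85-1*, and at 0.396 CPM or less elsewhere. No root or shoot marker was called between the genotypes, out of 11 and 8 tested, and none of the 7 seed markers had enough counts to be tested. *SESA3*, a seed albumin gene, was at 0 in all 6 libraries. The summed root markers ran from 178 to 474 CPM in Col-0 and from 163 to 482 CPM in *nup85-1*, and the summed shoot markers from 2073 to 3727 CPM and from 2036 to 3670 CPM. *IRT1* and the phosphate exporter gene *PHO1* carried most of the root sum in replicate 3. Gene by gene, the 11 root markers had a median log2 fold change (*nup85-1* over Col-0, paired by replicate number) of -0.23, and of -0.60 in replicate 3 alone, and in the 3 same-numbered comparisons 1 was always higher and 3 always lower. In replicate 3 of Col-0 and *nup85-1*, the root hair genes *RHD6* and *EXPA7* were at 2.46 and 0.359 CPM and at 6.67 and 2.51 CPM, and *CASP1*, a gene of the endodermis, was at 11.7 and 7.60 CPM. The part of tissue composition in the results below was not tested.

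*NUP85* (AT4G32910, TAIR10.1 chr4:15881245-15885518, plus strand) was examined first, since its level checks the labels. It stood at 31.1, 28.7 and 16.0 CPM in Col-0 and at 3.52, 1.72 and 27.5 CPM in the libraries labelled *nup85-1*. Replicates 1 and 2 of the mutant were thus far below both Col-0 counterparts, whereas the library labelled *nup85-1* mock replicate 3 was above its Col-0 counterpart and within the Col-0 range. With replicates 1 and 2 the log2 fold change (*nup85-1* over Col-0) was -3.46 (SE 0.28, adjusted p = 0.0489 from edgeR's quasi-likelihood test). All 3 replicates gave -1.18 (SE 0.90, adjusted p = 0.964 from edgeR). Without the mutant replicate 3 alone this value became -3.23. In what follows, "higher" and "lower" refer to the libraries as labelled, *nup85-1* against Col-0. Counts of called members of gene lists are given for all 3 replicates and for replicates 1 and 2. Fold changes of single genes are mostly given for all 3 replicates only. Of the other 9 genes tested for the subcomplex and *HOS1*, its associated E3 ubiquitin ligase, 0 were called in any of the fits, and the median log2 fold change of the list was 0.06.

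Genes counted as called had a change of at least 1.5-fold and, over the whole table, an adjusted p under 0.05. With all 3 replicates and no further term, 0 of 19488 nuclear genes were called by edgeR (0%), while 999 had an unadjusted p under 0.05. DESeq2 called 35 on the same libraries and limma-voom 0. With replicates 1 and 2, edgeR called 3 genes (0.0156% of 19271), namely *NUP85*, which was lower (0.00519%), and the transcription factor genes *RAP2.4* and AT1G22190, which were higher (0.0104%). An unadjusted p under 0.05 was reached by 2716 genes.

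Deviations from the group means were shared by libraries of equal replicate number, and the number was therefore also fitted as a block, which compares same-numbered libraries only. On all 3 replicates the block called 61 genes (0.313%), 35 of them higher (0.18%) and 26 lower (0.133%). On replicates 1 and 2 it called 427 genes (2.22%), 265 higher and 162 lower, and 60 of the 61 were among these, in the same direction. DESeq2 with its prior on fold changes was applied to replicates 1 and 2 without a filter on low counts and without organelle genes. It called 208 of 24325 genes (0.855%), 136 of them higher (0.559%) and 72 lower (0.296%), and 52 of the 208 were among the 61. All 61 genes differed in 1 direction in the 3 same-numbered comparisons. In 47 of them the genotypes did not overlap over the 6 libraries (11.2% of all genes tested), namely in 27 of the higher (6.37%) and 20 of the lower genes (4.85%). The shared direction and the lack of overlap follow largely from calling the 61 in these same libraries. They are no separate support for the calls.

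The length of these lists depended strongly on single libraries, and most of the 61 were called again within the longer lists. The block called 146, 144 and 478 genes without Col-0 replicate 1, 2 or 3, and 134, 270 and 551 genes without *nup85-1* replicate 1, 2 or 3. Between 50 and 61 of the 61 were called again each time. These fits reuse the libraries that called the 61 and gave longer lists, so they are not an independent check. Leaving out replicate 1 of both genotypes gave 149 genes and replicate 2 of both gave 152, with 52 and 60 of the 61 among them. Without the block, the 3 genes from replicates 1 and 2 became 3170 without Col-0 replicate 1, 882 without Col-0 replicate 2, 2 without *nup85-1* replicate 1 and 0 without *nup85-1* replicate 2. Because list length depended on the libraries used, the 61 genes from the block on all 3 replicates are described first, most with their levels. Counts from the 427 called on replicates 1 and 2 are given beside them.

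**Figure D1:**
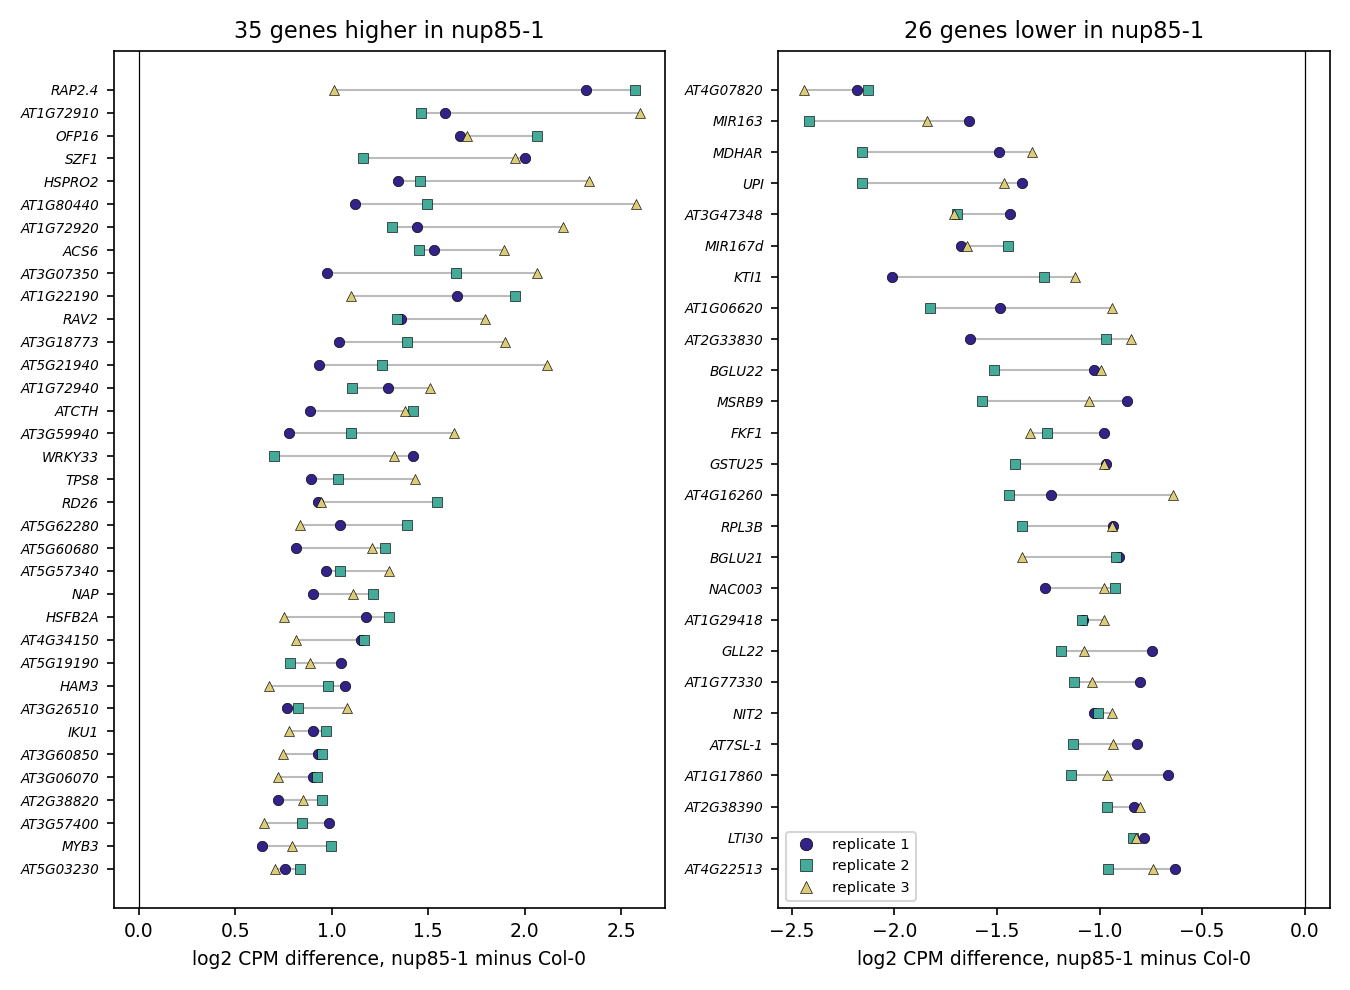
Differences of log2 CPM (*nup85-1* minus Col-0, mock, horizontal axes) between same-numbered libraries, with 1 point per replicate, for the 35 genes called higher (left) and the 26 called lower (right) with the replicate block on all 3 replicates. All points of a gene fall on 1 side of 0.

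Transcriptional regulators formed the biggest annotated group among the higher genes, with 11 of 35, against 1 of 26 among the lower genes. The higher genes also held 3 TIR-domain genes, 2 genes of CCCH zinc finger proteins and 11 genes without a described function or with a domain of unknown function, beside 1 such gene on the lower side. On the lower side stood 4 genes of protease inhibitors or lipid transfer proteins, 4 redox or detoxification enzymes and 3 genes of the endoplasmic reticulum (ER) body system. With them were 2 genes annotated to the superfamily of 2-oxoglutarate-dependent oxygenases and 4 RNA genes. These groups were made from the annotation after the calls were known, and no test was run on them. Their shares among all genes tested were not counted, so a departure from the background cannot be read from them. The gene lists used below were chosen with earlier results of these data known. Their counts and medians beside those of all genes are therefore descriptive. The median log2 fold change was 1.11 for the higher genes (0.76 to 1.96) and -1.12 for the lower genes (-2.30 to -0.78).

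The largest change among the higher genes was that of *RAP2.4* (AT1G78080), which encodes an AP2/ERF transcription factor of the DREB A-6 group that acts in responses to light, ethylene and drought. It was at 115, 114 and 368 CPM in Col-0 and at 571, 680 and 742 CPM in *nup85-1*. The ranges did not overlap, and the gap was narrower in replicate 3, where Col-0 itself was higher. With the block its log2 fold change was 1.96 (SE 0.28, adjusted p = 0.0489 from edgeR), and with replicates 1 and 2 alone it was 2.45. AT1G22190, the closest related gene called, also encodes an AP2-type factor of the A-6 group. Its levels were 21.4, 20.1 and 69.8 CPM in Col-0 and 67.3, 77.6 and 149 CPM in *nup85-1*, so that Col-0 replicate 3 overlapped the mutant replicate 1. The block gave 1.53 (SE 0.17, adjusted p = 0.0300 from edgeR). These were the 2 called among 7 tested A-6 genes, by either set of libraries, where 0.18% of all genes were called higher. The other members did not pass the test, and the nearest of them, AT2G22200, was at 5.08, 4.49 and 14.5 CPM in Col-0 and at 7.41, 11.2 and 23.0 CPM in *nup85-1* (0.78, adjusted p = 0.128 from edgeR with the block). None of the 7 tested CBF and DREB2 genes, the related factors of cold and drought responses, was called.

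**Figure D2:**
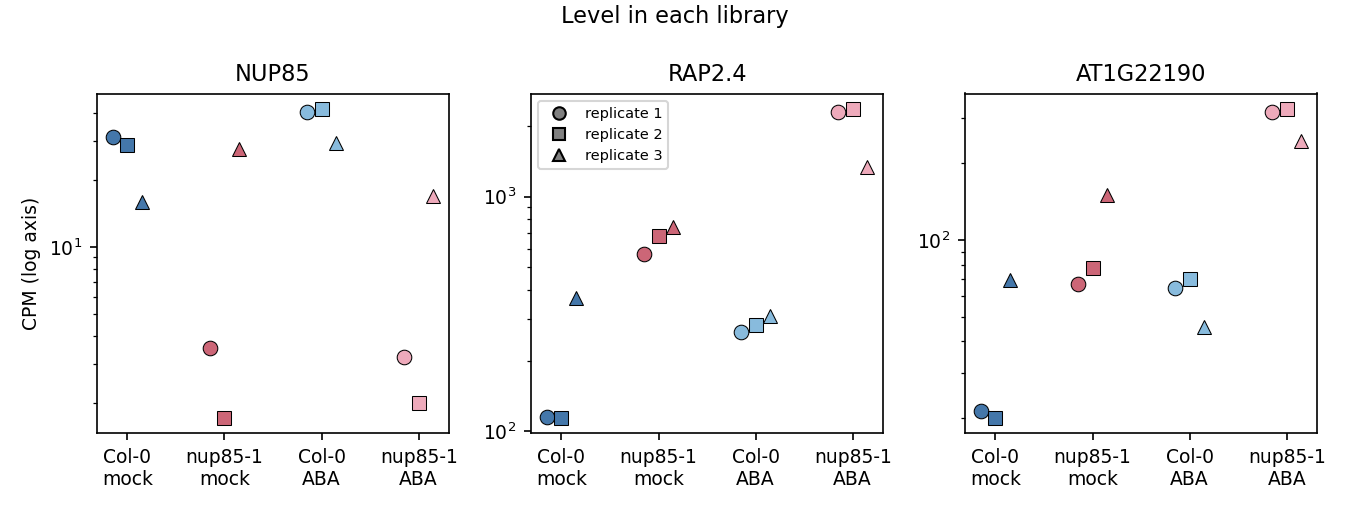
Levels (CPM, logarithmic axis) of *NUP85*, *RAP2.4* and AT1G22190 in each library of the 4 groups, with replicates 1, 2 and 3 as separate symbols. *NUP85* is low in mutant mock replicates 1 and 2 (3.52 and 1.72 CPM) and not in the library labelled *nup85-1* mock replicate 3 (27.5 CPM), while *RAP2.4* is higher in all 3 mutant mock libraries than in Col-0 mock.

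Among the lists, which were chosen with earlier results known, rapid response genes of wounding, touch and ethylene had the most members called higher on all 3 replicates. Of 28 tested, 4 were called higher and 0 lower with the block (0.18% and 0.133% over all genes), and 21 were higher and 0 lower in all 3 same-numbered comparisons, where 4054 of the 19488 genes tested were higher and 3560 lower. On replicates 1 and 2 the block called 10 higher (1.38% over all genes). The median log2 fold change was 0.90 with the block on all 3 replicates, against 0.00031 over all genes tested. It was 0.61 on replicates 1 and 2 without the block. In replicate 3 alone the median difference was larger, at 1.35. This is the pair in which the library labelled *nup85-1* did not have less *NUP85* than Col-0. *ACS6* encodes an ethylene biosynthesis enzyme, 1-aminocyclopropane-1-carboxylate synthase. It was at 19.7, 25.3 and 13.5 CPM in Col-0 and at 57.0, 69.3 and 50.4 CPM in *nup85-1*, with no overlap (1.62, SE 0.13, adjusted p = 0.0160 from edgeR with the block). *SZF1*, a CCCH zinc finger gene of salt and immune responses, had 23.0, 42.4 and 15.9 CPM in Col-0 and 92.1, 94.9 and 61.8 CPM in *nup85-1* (1.70, adjusted p = 0.0300 from edgeR). *HSPRO2*, a gene of basal resistance to bacteria, had 61.2, 64.5 and 21.2 CPM against 156, 178 and 107 CPM (1.70, adjusted p = 0.0300 from edgeR). Both were above Col-0 in every mutant library. *WRKY33*, a transcription factor gene of the response to fungi and of camalexin synthesis, was at 24.1, 43.1 and 13.6 CPM in Col-0 and at 64.7, 70.1 and 34.2 CPM in *nup85-1* (1.14, adjusted p = 0.0415 from edgeR). Here the mutant replicate 3 fell within the Col-0 range. Just outside the threshold was *ORA47*, an AP2/ERF gene of the jasmonate wound response, with 5.69, 5.54 and 0.702 CPM in Col-0 and 19.3, 19.4 and 13.0 CPM in *nup85-1* (2.33, SE 0.37, adjusted p = 0.0597 from edgeR with the block). *ERF4*, an ethylene response repressor gene, was called on replicates 1 and 2 only (1.5, adjusted p = 0.00412 from edgeR with the block). In replicate 3 its 2 values were close, 35.8 CPM in Col-0 and 42.4 CPM in *nup85-1*.

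A group of nearby genes on chromosome 1, AT1G72910, AT1G72920 and AT1G72940, encodes proteins with a TIR domain, the signaling domain of many plant immune receptors. All of them were called higher, while *TIR* (AT1G72930), a tested gene that lies between AT1G72920 and AT1G72940, was not called. AT1G72910 was at 11.4, 12.9 and 3.09 CPM in Col-0 and at 34.3, 35.6 and 19.0 CPM in *nup85-1* (1.83, SE 0.21). AT1G72920 was at 6.75, 7.93 and 3.23 CPM against 18.4, 19.8 and 15.1 CPM (1.65, SE 0.20). AT1G72940 was at 10.4, 13.9 and 9.12 CPM against 25.7, 30.1 and 26.1 CPM (1.31, SE 0.13). In none of them did the genotypes overlap, and the adjusted p was 0.0300 for each from edgeR with the block. The 3 genes lie between chr1:27435306 and 27443859 (TAIR10.1, plus strand) and resemble each other, so reads may be shared between them and they do not count as independent observations.

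Among genes that respond to sugar depletion, 3 of 15 tested were called higher and 0 lower, both with all 3 replicates and with replicates 1 and 2 (block), and the median of the list was 0.09. Over all genes, 0.18% were called higher and 0.133% lower by the former fit, and 1.38% and 0.841% by the latter. No other tested member of the list passed. *TPS8*, a class II trehalose-6-phosphate synthase gene, was at 94.4, 93.6 and 58.8 CPM in Col-0 and at 176, 191 and 159 CPM in *nup85-1*, without overlap (1.11, SE 0.14, adjusted p = 0.0300 from edgeR with the block). AT1G80440 and AT3G59940 encode kelch-repeat F-box proteins. AT1G80440 was at 92.7, 69.5 and 14.5 CPM in Col-0 and at 202, 196 and 86.6 CPM in *nup85-1* (1.69, adjusted p = 0.0489 from edgeR). AT3G59940 was at 221, 165 and 61.7 CPM against 378, 355 and 192 CPM (1.16, adjusted p = 0.0489 from edgeR). In both, replicate 3 was lower in either genotype and the mutant replicate 3 fell within the Col-0 range. AT3G18773, a RING/U-box protein gene, was also called (1.43) at 12.7, 8.98 and 5.61 CPM in Col-0 and 26.1, 23.6 and 21.1 CPM in *nup85-1*.

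Further regulators among the higher genes came from several families. *OFP16*, an OVATE family gene of transcriptional repressors, had the smallest adjusted p among the 61 (0.0132 from edgeR with the block) and was at 26.8, 16.9 and 11.4 CPM in Col-0 and at 85.3, 70.9 and 37.4 CPM in *nup85-1* (1.80, SE 0.13). *RAV2*, also called *TEMPRANILLO 2*, a repressor of flowering, was at 87.3, 88.6 and 28.1 CPM against 224, 224 and 97.5 CPM (1.49, adjusted p = 0.0185 from edgeR). The genotypes did not overlap in either gene. *RAV2* was the only 1 of 21 tested flowering-time genes called with all 3 replicates, where 0.18% of all genes were called higher. On replicates 1 and 2 the block called 3 higher and 1 lower (1.38% and 0.841% over all genes). *RD26*, a NAC factor gene induced by dehydration and ABA, was at 14.9, 12.6 and 16.3 CPM in Col-0 and at 28.4, 36.8 and 31.4 CPM in *nup85-1* (1.11, adjusted p = 0.0386 from edgeR). *NAP*, a NAC factor gene of leaf senescence, *HAM3*, a GRAS factor gene of meristem maintenance, *MYB3*, a repressor of phenylpropanoid genes, *IKU1*, a VQ-motif gene first known from seed size, and *HSFB2A*, a class B heat shock factor gene, rose by log2 fold changes of 1.07, 0.89, 0.80, 0.87 and 1.04. Of these, only *HSFB2A* overlapped between the genotypes. It was the only 1 of 13 tested heat shock genes called with all 3 replicates (0.18% of all genes higher). On replicates 1 and 2 the block called 2 heat shock genes higher and 0 lower (1.38% and 0.841% over all genes). The sole regulator on the lower side was *NAC003*, at 13.1, 17.1 and 10.8 CPM in Col-0 and 5.42, 8.97 and 5.45 CPM in *nup85-1* (-1.07).

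Among the higher genes without a named role, AT3G07350 was at 23.9, 17.8 and 15.1 CPM in Col-0 and at 47.1, 55.8 and 63.4 CPM in *nup85-1* (1.55), and AT5G21940 at 105, 86.1 and 44.8 CPM against 201, 206 and 194 CPM (1.43). Neither overlapped between the genotypes. *ATCTH*, a CCCH zinc finger gene like *SZF1*, was at 112, 68.7 and 46.4 CPM against 208, 184 and 121 CPM (1.22). The remaining ones, among them AT4G34150 with a C2 domain (1.03), AT3G26510 with a PB1 domain (0.89) and AT5G60680 and AT5G03230 of a shared family of unknown function (1.09 and 0.76), differed by less than AT3G07350.

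ABA signaling and dehydration genes were called in both directions. Of 37 tested, 1 was called higher (*RD26*) and 1 lower with the block on all 3 replicates, and 7 higher and 1 lower on replicates 1 and 2, with a median of 0.19. The shares of all genes called higher and lower were 0.18% and 0.133% on all 3 replicates and 1.38% and 0.841% on replicates 1 and 2, and the single lower gene is near this background on replicates 1 and 2. The lower gene was *LTI30*, a dehydrin gene of cold and drought responses, at 53.3, 66.6 and 30.0 CPM in Col-0 and 30.9, 37.2 and 16.9 CPM in *nup85-1* (-0.82, SE 0.11, adjusted p = 0.0329 from edgeR with the block). Its values overlapped over the 6 libraries because replicate 3 was low in both genotypes. *NCED3*, which encodes the rate-limiting 9-cis-epoxycarotenoid dioxygenase of ABA synthesis, was at 15.6, 14.4 and 25.6 CPM in Col-0 and at 29.3, 27.0 and 38.1 CPM in *nup85-1*. It was called on replicates 1 and 2 (0.91, adjusted p = 0.0226 from edgeR with the block) and not on all 3 (0.78, adjusted p = 0.0597).

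The sharpest decrease belonged to AT4G07820, a gene of the CAP superfamily that includes the pathogenesis-related protein PR-1. It was at 9.72, 10 and 9.26 CPM in Col-0 and at 2.09, 2.24 and 1.65 CPM in *nup85-1* (-2.30, SE 0.20, adjusted p = 0.0185 from edgeR with the block). No Col-0 library came near the mutant range, and replicate 3 did not stand apart. Several lower genes encode inhibitors of proteases. *UPI*, an unusual serine protease inhibitor gene of resistance to necrotrophic fungi and herbivores, was at 19.4, 30.8 and 24.3 CPM in Col-0 and at 7.41, 6.86 and 8.75 CPM in *nup85-1* (-1.65, SE 0.17). *KTI1*, a Kunitz trypsin inhibitor gene that restrains cell death in defense, was at 39.7, 30.4 and 32.8 CPM against 9.79, 12.5 and 15.1 CPM (-1.47, SE 0.18). AT1G17860, another Kunitz family inhibitor gene, was at 60.7, 89.7 and 79.9 CPM against 38.2, 40.6 and 41.0 CPM (-0.93). The genotypes did not overlap in these 3 genes, and the adjusted p was 0.0300, 0.0300 and 0.0386 from edgeR with the block. *KTI1* was the only 1 of 22 tested jasmonate genes called with all 3 replicates, and 4 were called lower with replicates 1 and 2 (0.841% of all genes). The list as a whole did not share this direction, with 7 members higher and 1 lower in all 3 same-numbered comparisons and a median of 0.16. AT4G22513, of the protease inhibitor and lipid transfer protein family, was lower by the smallest amount (-0.78).

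Among the lower genes were 4 annotated as redox or detoxification enzymes. *MDHAR* (AT3G09940), a monodehydroascorbate reductase gene of ascorbate recycling, was at 9.46, 22.6 and 12 CPM in Col-0 and at 3.33, 5.01 and 4.74 CPM in *nup85-1* (-1.67, SE 0.20, adjusted p = 0.0300 from edgeR with the block). *MSRB9*, a methionine sulfoxide reductase gene, was at 23.7, 59.4 and 34.5 CPM against 12.9, 19.9 and 16.6 CPM (-1.18). *GSTU25*, a tau class glutathione S-transferase gene, was at 28.1, 61.8 and 44.3 CPM against 14.4, 23.2 and 22.5 CPM (-1.13). In all 3, Col-0 replicate 2 held the highest value and no mutant library reached the Col-0 range. AT2G38390, a class III peroxidase gene, fell by 0.87 on the log2 scale. Of 16 tested glutathione S-transferase genes, *GSTU25* alone was called on all 3 replicates (0.133% of all genes lower), 6 were called lower on replicates 1 and 2 (0.841%) and 0 were called higher by either fit. For 11 of the 16 the mutant was lower in all 3 same-numbered comparisons (3560 of 19488 over all genes), and the median was -0.47. AT1G06620 and AT1G77330, annotated to the superfamily of 2-oxoglutarate-dependent oxygenases, were also lower (-1.40 and -1.0). This is a family label, and the cosubstrate of each enzyme was not examined. *NIT2*, a nitrilase gene linked to auxin and glucosinolate breakdown, was at 48.2, 63.2 and 101 CPM in Col-0 and at 23.6, 31.4 and 52.4 CPM in *nup85-1* (-1.0, SE 0.11).

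The ER body is a compartment of Brassicaceae seedlings and roots that stores the β-glucosidase PYK10, which meets its substrates and jacalin-related lectins when tissue is damaged. Members of this system were called in the lower direction: 3 of 17 tested were called lower on all 3 replicates and 5 on replicates 1 and 2 (0.133% and 0.841% of all genes), 0 were called higher, and 15 of 17 were lower in all 3 same-numbered comparisons (3560 of 19488 over all genes). The median was -0.46, beside -0.23 for the root markers, whose part in this result was not tested. *BGLU21* and *BGLU22* encode β-glucosidases close to PYK10. *BGLU21* was at 41.9, 60.8 and 64.4 CPM in Col-0 and at 22.3, 32.1 and 24.8 CPM in *nup85-1* (-1.08). *BGLU22* was at 37.8, 72.9 and 61.4 CPM against 18.5, 25.5 and 30.9 CPM (-1.18). They are adjacent, similar genes that may share reads. *GLL22*, a GDSL lipase-like gene of the PYK10 complex, was at 41.7, 69.2 and 37.8 CPM against 24.9, 30.3 and 17.9 CPM (-1.01). The adjusted p was 0.0300 for each of the 3 from edgeR with the block, and none overlapped between the genotypes. *PYK10* itself, among the most abundant mRNAs of the list, was at 1906, 2520 and 2601 CPM in Col-0 and at 1127, 1363 and 2038 CPM in *nup85-1* and did not pass (-0.67, adjusted p = 0.117 from edgeR with the block). *NAI1* and *NAI2*, which encode a transcription factor and a scaffold protein needed to form ER bodies, did not pass either (-0.21 and -0.44).

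**Figure D3:**
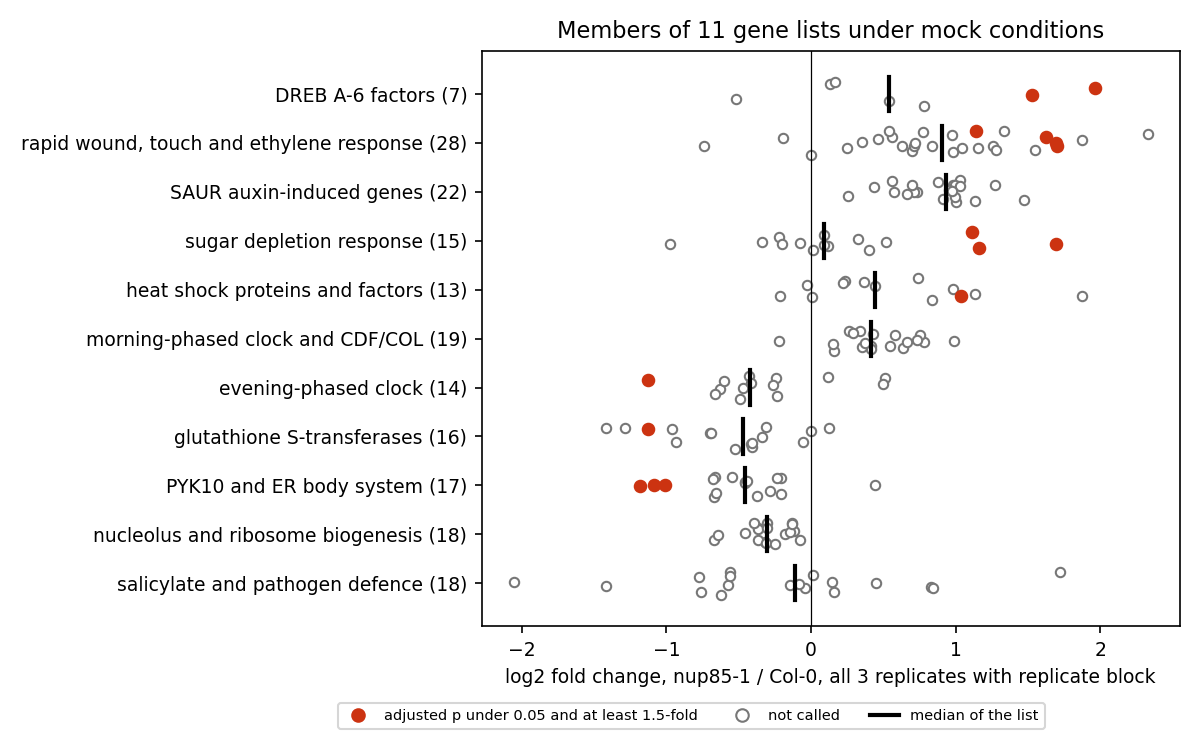
Log2 fold changes (*nup85-1* over Col-0, mock, replicate block on all 3 replicates) of the tested members of 11 gene lists, with 1 point per gene, filled where called, a bar at the list median and the number tested in parentheses. The median lies at 0.90 for rapid wound, touch and ethylene genes, at 0.93 for SAUR genes, at -0.46 for the PYK10 and ER body list and at -0.47 for glutathione S-transferases.

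Of the 26 lower genes, 4 were counted here as RNA genes, *AT7SL-1* by its name, since RefSeq lists it as protein coding. They were the primary transcripts *MIR163* and *MIR167d*, the small nucleolar RNA gene AT3G47348, which was at 9.64, 12.1 and 6.25 CPM in Col-0 and 3.52, 3.69 and 1.87 CPM in *nup85-1* (-1.63), and *AT7SL-1*, a gene of the 7SL RNA of the signal recognition particle, at 36.4, 45.4 and 23.8 CPM against 20.6, 20.7 and 12.4 CPM (-0.96). *MIR167d* was at 28.4, 18.1 and 1.26 CPM in Col-0 and at 8.84, 6.6 and 0.359 CPM in *nup85-1* (-1.61, SE 0.17, adjusted p = 0.0300 from edgeR with the block). *MIR163* was at 3.68, 2.4 and 5.83 CPM against 1.14, 0.396 and 1.58 CPM (-1.92, SE 0.28, adjusted p = 0.0489 from edgeR with the block). Their counts were small, down to 5 reads for *MIR167d* in mutant replicate 3 and 3 reads for *MIR163* in mutant replicate 2. *MIR163* was the 1 gene of the 61 that the block on replicates 1 and 2 did not call (adjusted p = 0.0513 from edgeR). Reads on these loci come from longer RNAs, so the levels of the mature miRNAs were not measured. The mature sequences that the loci encode are given to identify them, in DNA letters from RefSeq on TAIR10.1, plus strand, with the seed (bases 2 to 8) in capitals. The miR167 family targets auxin response factor mRNAs, and miR163 targets methyltransferase mRNAs. The loci of the mature miRNAs are chr1:11137556-11137577 for miR167d and chr1:24884359-24884382 for miR163, and the seeds differ.
ath-miR167d: tGAAGCTGccagcatgatctgg
ath-miR163: tTGAAGAGgacttggaacttcgat

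Clock genes are described separately, since their levels set replicate 3 apart from replicates 1 and 2 in both genotypes. The summed evening-phased genes were at 4660, 4046 and 358 CPM in Col-0 and at 3013, 2771 and 319 CPM in *nup85-1*. *FKF1*, a blue light receptor F-box gene of the evening that promotes flowering, was at 38.0, 41.3 and 0.281 CPM in Col-0 and at 19.3, 17.3 and 0.0717 CPM in *nup85-1*. It was called lower with the block (-1.13, SE 0.15, adjusted p = 0.0386 from edgeR), a value that rests on replicates 1 and 2, since replicate 3 held 4 reads in Col-0 and 1 in *nup85-1*. Of 14 tested evening-phased genes, *FKF1* was the only 1 called with all 3 replicates (0.133% of all genes lower), and 4 were called lower with replicates 1 and 2 (0.841%). In all 3 same-numbered comparisons 2 were higher and 6 lower, and the median difference in replicate 3 was 0.07. Among 19 morning-phased genes and their CDF and CONSTANS-like relatives, 0 were called with all 3 replicates and 5 were called higher with replicates 1 and 2 (1.38% of all genes), while 14 were higher and 1 lower in all 3 same-numbered comparisons (4054 and 3560 of 19488 over all genes). The medians on all 3 replicates were -0.42 for the evening and 0.42 for the morning list. In replicate 3 alone the median difference of the morning list was 0.14. *CDF1*, a DOF factor gene that represses *CONSTANS*, was at 24.7, 15.3 and 53.1 CPM in Col-0 and at 41.5, 40 and 65.7 CPM in *nup85-1* (1.03 on replicates 1 and 2, adjusted p = 0.0236 from edgeR with the block). AT2G33830, a dormancy and auxin associated gene, also had far lower levels in replicate 3 and was called lower (125, 75.6 and 3.79 CPM against 40.3, 38.5 and 2.08 CPM, -1.24).

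Some functions were called on replicates 1 and 2 only. SAUR genes, small auxin-induced genes of cell expansion, were the clearest of these: with the block, 13 of 22 tested were higher on replicates 1 and 2 and 0 on all 3, where 1.38% and 0.18% of all genes were called higher. In all 3 same-numbered comparisons 18 of the 22 were higher (4054 of 19488 over all genes). The genotypes did not overlap in 12 of the 22 (6.37% of all genes in this direction). The median was 0.93 on all 3 replicates with the block and 1.15 on replicates 1 and 2 without it. In replicate 3 alone the median difference was smaller, at 0.26. *SAUR26* was at 3.59, 1.65 and 3.51 CPM in Col-0 and at 9.51, 8.97 and 6.96 CPM in *nup85-1* (1.47, adjusted p = 0.0761 from edgeR with the block on all 3 replicates). AT1G29500 came nearest to the threshold, at 17.2, 10.3 and 15.4 CPM against 33.2, 29.8 and 25.9 CPM (1.03, adjusted p = 0.0570 from edgeR with the block). SAUR genes lie in clusters of similar copies and may share reads. Of 16 tested Aux/IAA, GH3 and auxin transport genes, 2 were called higher on replicates 1 and 2 and 0 on all 3, with *IAA29* at 3.07, 2.54 and 1.19 CPM in Col-0 and 6.37, 8.31 and 2.37 CPM in *nup85-1*.

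Flavonoid and anthocyanin genes were likewise called on replicates 1 and 2 only, with 8 of 23 tested higher and 0 lower, against 0 on all 3 replicates, where 1.38% and 0.18% of all genes were called higher. *DFR*, the dihydroflavonol reductase gene of anthocyanin synthesis, was at 20.8, 13.0 and 125 CPM in Col-0 and at 78.6, 60.4 and 118 CPM in *nup85-1*, so that mutant values lay above both Col-0 values in replicates 1 and 2 and below the Col-0 value in replicate 3. The block gave 2.05 on replicates 1 and 2 (adjusted p = 0.000761 from edgeR) and 1.25 on all 3 (adjusted p = 0.211). *LDOX*, the next enzyme gene of the pathway, was at 21.6, 23.7 and 129 CPM against 59.3, 49.2 and 115 CPM and followed the same pattern. The median difference of the list in replicate 3 was -0.10. Of the 25 light signaling and B-box genes tested, 4 were called higher on replicates 1 and 2, and of 13 nitrogen genes 2 were, with 0 called on all 3 replicates in both lists. *LBD37*, a repressor of anthocyanin genes induced by nitrogen, was at 92.4, 72.1 and 102 CPM in Col-0 and at 145, 166 and 160.2 CPM in *nup85-1*. Whether the genotype difference itself changed between the replicate sets was not tested.

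Genes of the nucleolus and of ribosome biogenesis were lower in 11 of 18 tested in all 3 same-numbered comparisons (3560 of 19488 over all genes), with a median of -0.31. The median was -0.44 on replicates 1 and 2 without the block, and the median difference in replicate 3 alone was -0.08. The block called 0 of these genes on all 3 replicates and 2 lower on replicates 1 and 2, where 0.841% of all genes were called lower. These were *FIB2*, a fibrillarin gene, and *HDA3*, a nucleolar histone deacetylase gene. *FIB2* was at 63.0, 90.0 and 70.0 CPM in Col-0 and at 42.1, 41.7 and 55.7 CPM in *nup85-1*, without overlap (-0.84 on replicates 1 and 2, adjusted p = 0.0330 from edgeR with the block). Outside the list, *RPL3B*, a gene of cytosolic ribosomal protein L3, was called on all 3 replicates at 39.3, 57.0 and 42.3 CPM in Col-0 and 20.5, 21.9 and 22 CPM in *nup85-1* (-1.09, SE 0.13, adjusted p = 0.0300 from edgeR). Salicylate and pathogen defense genes split: of 18 tested, 1 was called higher (*WRKY70*) and 4 lower on replicates 1 and 2, and 0 on all 3. Over all genes, 1.38% were called higher and 0.841% lower on replicates 1 and 2. *CYP71A12*, a cytochrome P450 gene of camalexin synthesis, was at 9.46, 7.93 and 1.19 CPM in Col-0 and at 1.33, 2.11 and 0.646 CPM in *nup85-1* (-2.06, SE 0.35, adjusted p = 0.0637 from edgeR with the block on all 3). AT4G16260, a glycosyl hydrolase gene outside the list, was called at 90.8, 118 and 55.7 CPM against 38.5, 43.5 and 35.7 CPM (-1.11). The lists of starch metabolism, nuclear photosynthesis genes, cell cycle genes and hypoxia genes had 0 members called on all 3 replicates, of 17, 24, 17 and 17 tested, and at most 1 in each direction on replicates 1 and 2. The 9 type-A response regulators and 10 alpha-expansins had 0 called in either.

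Promoters of the called genes were then searched for known elements, in the window from 250 bases before the annotated gene start to 50 bases after it, on both strands of the RefSeq annotation of TAIR10.1. The core of the ABA-responsive element (ACGTG), which also lies within the G-box (CACGTG), was found in 14 of the 26 lower genes (53.8%), in 10 of the 35 higher genes (28.6%) and in 27.7% of all 19471 nuclear genes tested that had a window. In the longer lists from the block on replicates 1 and 2 the order was the other way, with the core in 100 of the 265 higher genes (37.7%) and in 54 of the 162 lower genes (33.3%). The evening element (AAATATCT) was in 3 of the 26 (11.5%), 1 of the 35 (2.86%) and 5.93% of all. The W-box (TTGACC), bound by WRKY factors, was in 5 and 6 (19.2% and 17.1%, against 14.3% of all), the GCC-box (AGCCGCC), bound by ethylene response factors, in 0 and 1 (against 0.822%), the dehydration-responsive element (ACCGAC) in 2 and 1 (against 6.35%) and the rapid stress element (CGCGTT) in 0 and 1 (against 3.71%). The G-box itself was in 1 of the 26 and 2 of the 35 (3.85% and 5.71%, against 8.73%). For the lists from replicates 1 and 2, lower then higher, the evening element was in 21 and 14 (13% and 5.28%, against 5.94%). The GCC-box was in 6 and 2 (3.7% and 0.755%, against 0.836%), and the G-box in 13 and 37 (8.02% and 14%, against 8.71%). The W-box was in 14.8% and 18.1% (against 14.2%). The dehydration-responsive element was in 5.56% and 4.53% (against 6.33%), the rapid stress element in 4.94% and 4.15% (against 3.69%). These are matches of letters, given without a test. Shown next are the 250 bases before the gene start of 5 called genes whose levels were given above, chosen because they hold matches of different kinds, with the matches in capitals. *FKF1* holds the evening element on both strands and 2 copies of the ABA-responsive core, *MDHAR* and *KTI1* hold the core alone, on both strands, *WRKY33* holds the core, a GCC-box and a W-box, and *LTI30* holds the dehydration-responsive element on both strands, with its core and evening element after the gene start and not shown. They lie at chr1:25508389-25508638 (plus), chr3:3059245-3059494 (minus), chr1:27548283-27548532 (minus), chr2:16107985-16108234 (plus) and chr3:18940393-18940642 (plus), and each is written in the direction of its gene.
FKF1 promoter: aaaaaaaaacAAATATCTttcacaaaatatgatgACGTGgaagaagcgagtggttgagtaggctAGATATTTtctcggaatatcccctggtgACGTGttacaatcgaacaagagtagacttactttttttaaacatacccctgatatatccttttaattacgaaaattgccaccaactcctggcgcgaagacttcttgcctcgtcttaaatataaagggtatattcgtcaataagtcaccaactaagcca
MDHAR promoter: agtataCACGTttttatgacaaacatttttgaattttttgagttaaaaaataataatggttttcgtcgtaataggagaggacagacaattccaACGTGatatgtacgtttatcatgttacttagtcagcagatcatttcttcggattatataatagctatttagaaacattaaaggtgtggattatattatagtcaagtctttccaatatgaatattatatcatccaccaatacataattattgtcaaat
KTI1 promoter: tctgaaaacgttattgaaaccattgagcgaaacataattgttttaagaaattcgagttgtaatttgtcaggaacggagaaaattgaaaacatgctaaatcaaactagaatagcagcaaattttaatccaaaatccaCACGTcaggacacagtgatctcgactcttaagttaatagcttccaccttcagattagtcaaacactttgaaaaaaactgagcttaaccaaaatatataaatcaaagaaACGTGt
WRKY33 promoter: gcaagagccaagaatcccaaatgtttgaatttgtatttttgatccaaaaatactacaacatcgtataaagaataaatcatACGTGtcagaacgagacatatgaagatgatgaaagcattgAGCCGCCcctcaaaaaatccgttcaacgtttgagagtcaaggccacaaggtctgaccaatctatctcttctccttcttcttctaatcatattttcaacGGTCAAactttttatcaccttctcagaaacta
LTI30 promoter: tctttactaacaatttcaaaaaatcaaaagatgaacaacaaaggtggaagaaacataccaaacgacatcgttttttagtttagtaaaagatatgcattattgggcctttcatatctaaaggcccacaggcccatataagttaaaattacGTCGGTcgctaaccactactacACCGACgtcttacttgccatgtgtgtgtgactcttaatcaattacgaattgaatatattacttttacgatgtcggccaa

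The ABA libraries, which the mock comparison had not used, gave a look-up of the 61 genes in other RNA of seedlings labelled with the same genotypes. *NUP85* stood at 40.5, 41.7 and 29.4 CPM in Col-0 and at 3.21, 1.99 and 17.0 CPM in *nup85-1* after ABA, so that the mutant replicate 3 was again far above the mutant replicates 1 and 2, though below every Col-0 library. In these libraries the genotype difference had the mock direction for 58 of the 61 (95.1%, block on all 3 replicates), against 62.7% over all genes. With the block, 14 of the 61 were called in the mock direction and 0 in the other, where 1.37% of all genes were called. Without the block, 23 of 60 tested were called in the mock direction on replicates 1 and 2 of the ABA libraries (2.98% over all genes). The unblocked fit on all 3 replicates called 0 (0% over all genes), with 995 genes at an unadjusted p under 0.05. Without overlap between the genotypes after ABA, in the mock direction, were 13 of the higher genes (6.22% of all genes) and 6 of the lower (5.08%). The 8 called higher with the block (0.898%) were *RAP2.4*, AT1G22190, *RAV2*, AT5G62280, AT5G60680, AT5G19190, AT3G06070 and AT2G38820. The 6 called lower (0.476%) were *UPI*, *BGLU22*, *NAC003*, AT4G16260, AT2G38390 and AT1G29418. After ABA, *RAP2.4* was at 265, 284 and 311 CPM in Col-0 and at 2301, 2363 and 1343 CPM in *nup85-1*. AT1G22190 was at 64.7, 70.5 and 45.4 CPM against 318, 327 and 245 CPM, and *UPI* at 223, 216 and 119.8 CPM against 88.3, 84.2 and 49.3 CPM. None of them overlapped between the genotypes in these libraries. *RAP2.4* and AT1G22190 differed by 2.77 and 2.32 after ABA (adjusted p = 0.00937 and 0.00410 from edgeR with the block), and *UPI* by -1.32 (adjusted p = 0.00937). Exceptions in direction were *NAP* (-0.28), *MIR167d* (0.22) and *FKF1* (0.02). On replicates 1 and 2 of the ABA libraries, without the block, their values were -0.31, 1.3 and 0.56. Thus *MIR167d* and *FKF1* were higher in these mutant libraries, while in replicate 3 both were below Col-0. The value of *RPL3B* after ABA was also near 0 (-0.02, adjusted p = 0.940 from edgeR with the block).

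**Figure D4:**
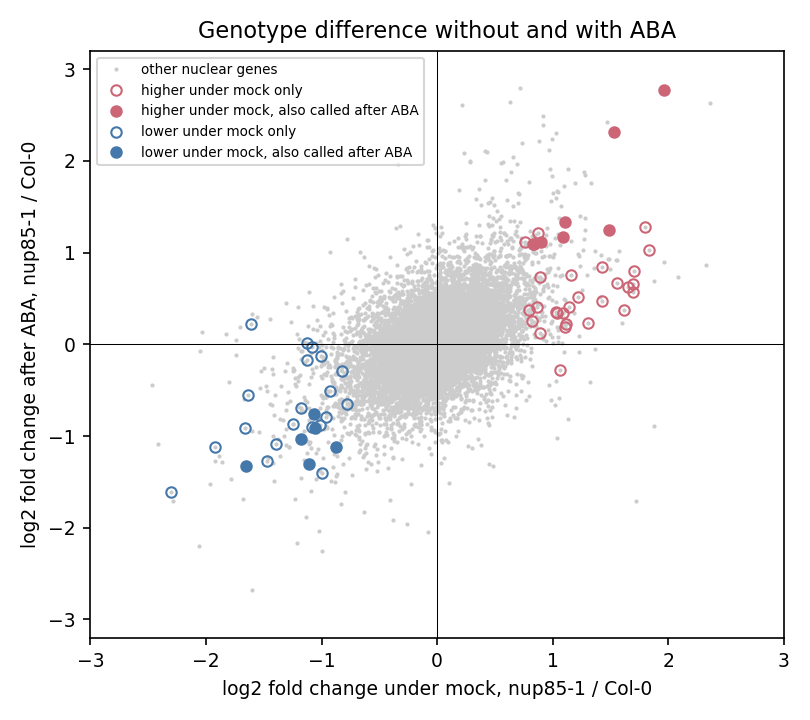
Log2 fold change between genotypes after ABA (vertical axis) against that under mock conditions (horizontal axis), both *nup85-1* over Col-0 with the replicate block, for 19233 nuclear genes tested in both, with the 61 mock calls in color and filled where also called after ABA. Of the 61, 58 lie on the same side of 0 on both axes and 14 are filled, and 2 genes fall outside the axes.

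Replicate 3 gave a further look-up, of the 427 genes that the block had called on replicates 1 and 2. In the single pair of replicate 3 libraries, 348 of 421 (82.7%) differed in the same direction, against 56.6% of all genes. The share was 235 of 265 for higher genes and 113 of 156 for lower genes. The median difference along the called direction was 0.36 on the log2 scale, against 0.04 over all genes. This pair includes the library labelled *nup85-1* mock replicate 3, in which *NUP85* (27.5 CPM) went against its label. The label was not tested, and the shared direction does not test it.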

How the data were processed

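Total RNA was sequenced from 6 mock libraries, 3 of Col-0 and 3 of *nup85-1*. Reads were trimmed by the authors, aligned to TAIR10 with TopHat2 and assigned to genes with featureCounts (versions are not given in the sources used here), and the deposited values are raw counts per gene without normalization. The counts were normalized by TMM and tested with edgeR 4.0.16 (R 4.3.3, quasi-likelihood F test) after filterByExpr, on the mock libraries only, with Benjamini-Hochberg adjustment over the whole table. Calls required a change of at least 1.5-fold and an adjusted p under 0.05. Standard errors were taken from the log2 fold change and the F statistic. Organelle genes stayed in the fit and out of the counts reported. Depth was 6616931 to 14479752 counts per mock library, and small counts are stated beside the genes that had them. Same-numbered libraries were treated as pairs on the data alone: their deviations from the group means correlated at 0.535, 0.520 and 0.762, each higher than with any other number, over 19606 genes. As replicate 3 lies apart in both genotypes, this shows pairing less firmly for replicates 1 and 2, whose crossed correlations were 0.308 and 0.372. The script was tested on simulated data. Alternatives were DESeq2 1.42.0, limma 3.58.1 (voom), other scalings and filters, and leaving out libraries. Settings of the block fit other than the block itself were added after the data had been seen. Named genes were *NUP85*, each gene called without the block, the 12 higher and 12 lower block calls with the largest change and up to 3 members per list with the smallest p on replicates 1 and 2. All other names, among them the rest of the 61, were chosen after their values were seen. The gene lists and the members were chosen with earlier results of these data known, so no p is given for a list. Of the 33602 IDs, 32835 matched the RefSeq table of TAIR10.1, whose coordinates and sequences were used for names, positions and promoters.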

Additional observations from a re-analysis of the deposited data

Results flagged for a closer look

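*FKF1*, the evening-phased F-box gene, differed between genotypes in another way under mock conditions than after ABA, by a test of the difference itself on replicates 1 and 2. The log2 fold change was -1.12 under mock conditions and 0.56 after ABA, and the difference of 1.67 had an adjusted p of 0.0499 (edgeR interaction term). With all 3 replicates the difference was 1.39, with an adjusted p of 1.00 from edgeR. In replicate 3 *FKF1* was counted with 4 reads in Col-0 mock and 1 in *nup85-1* mock. Over all genes, 2 of 20370 passed this interaction test on replicates 1 and 2 and 0 of 20454 on all 3 replicates.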

How the results depend on the processing

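With all 3 replicates, the count of 0 genes became 35 by DESeq2 (24 higher, 11 lower), 61 with the replicate block and 3 on replicates 1 and 2, and stayed 0 when any 1 library was left out. With replicates 1 and 2, the count of 3 became 0 with upper-quartile scaling or the fold limit in the test, 1 with limma-voom, 377 without a filter on low counts, 179 by DESeq2 without its prior, 208 with it, 173 when all 4 groups were fitted together and 427 with the replicate block, and ran from 0 to 3170 when 1 library was left out, where a lone library of a genotype is assumed to vary like the others. The 61 block calls became 231 by DESeq2, 39 with upper-quartile scaling, 196 without a filter and 106 without organelle genes, 146, 144 and 478 without Col-0 replicate 1, 2 or 3, 134, 270 and 551 without *nup85-1* replicate 1, 2 or 3, and 149, 152 and 427 without replicate 1, 2 or 3 of both. Of the 61, 39 were called under all 7 alternative scalings, filters and tests, and all 61 kept their sign in all of these and in each fit without a library. After ABA, 0 of the 61 were called on all 3 replicates without the block, 14 with it, and 23 on replicates 1 and 2 without it.

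For *NUP85*, replicates 1 and 2 gave -3.46 where all 3 gave -1.18, which ran from -3.23 to -0.70 without 1 library. On replicates 1 and 2 the call was lost with upper-quartile scaling (-3.45, adjusted p = 0.0512 from edgeR), limma-voom (-3.51, adjusted p = 0.0831) and the fold limit in the test (-3.46, adjusted p = 0.0942 from edgeR), and the value ran from -4.11 to -3.08 without 1 library, with the call lost without *nup85-1* replicate 2.

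Named genes that changed sign did so when 1 library was left out of the fit on all 3 replicates, in which 0 genes were called: *LDOX* (-0.11 to 1.71), *PAP1* (-0.0049 to 1.43), *COL2* (-1.19 to 2.61), *HSP70* (-1.87 to 2.73), *GBSS1* (-1.16 to 2.27), *AMT1;2* (-0.73 to 2.50), *RR3* (-0.31 to 0.69), *RBCS1B* (-0.31 to 1.05), *BBX16* (-0.15 to 1.51), *ADH1* (-0.68 to 0.18), *FMA* (-0.25 to 0.058, and -0.36 to 0.035 on replicates 1 and 2), *CT-BMY* (-1.68 to 0.82), *IRT1* (-2.22 to 1.69), AT5G06980 (-0.16 to 1.5) and *ARR9* (-0.022 to 0.86). Depth limits the low genes most, as 3 of the 61 had under 10 reads in a mock library. The cause of these dependences was not tested.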

Other observations

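In some of the largest decreases called with the block on replicates 1 and 2, Col-0 replicate 2 stood above every other library. *PDF1.3*, a plant defensin gene, was at 1.31, 60.3 and 0 CPM in Col-0 and at 0, 0.264 and 3.09 CPM in *nup85-1*. *PDF1.2*, the jasmonate and ethylene marker defensin gene, was at 1.23, 34.6 and 0.0702 CPM in Col-0 and at 0.0951, 0.264 and 0.717 CPM in *nup85-1*. *PR4*, a hevein-like defense gene, was at 124, 381 and 46.0 CPM in Col-0 and at 41.2, 60.0 and 58.2 CPM in *nup85-1*. Col-0 replicate 2 held the highest value in each of these genes, which were chosen after their values were seen. *PR1*, the salicylate marker gene, was at 15.4, 10 and 0 CPM in Col-0 and at 0, 14.5 and 18.4 CPM in *nup85-1*, without a pattern by genotype.

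Around the insertion, the 20 tested genes on each side of *NUP85* were looked up. Apart from *NUP85*, 0 of them were called on all 3 replicates, with or without the block, or on replicates 1 and 2 without it. The block on replicates 1 and 2 was not read for these genes. The smallest unadjusted p values on replicates 1 and 2 belonged to *CCD8*, a carotenoid cleavage dioxygenase gene of strigolactone synthesis, and AT4G33040. *CCD8* was at 3.68, 5.39 and 0.912 CPM in Col-0 and at 1.33, 1.32 and 1.79 CPM in *nup85-1* (-1.74, adjusted p = 0.177 from edgeR). AT4G33040 was at 5.26, 2.84 and 18.5 CPM against 10.7, 8.84 and 19.7 CPM (1.22, adjusted p = 0.227 from edgeR).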
